A study of Sus scrofa with 12 samples.

Results

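The genes described here are the porcine ZNF genes, that is the genes whose pig symbol is ZNF followed by a number, that averaged 1 FPKM or more across the libraries of an in vitro maturation series of oocytes. FPKM stands for fragments per kilobase of transcript, scaled to the mapped fragments of the library. There were 102 such genes among 247 ZNF genes that could be named, and among 7013 genes of any name at that level out of 31908 listed identifiers. Members were selected on their mean level over the 12 libraries, so that mean is a description and was not tested, whereas the change between stages was not part of the choice. A gene that is high at a single stage could still enter by that stage. This applied to 8 members whose mean over the other 8 libraries was under 1 FPKM, ZNF329, ZNF354C, ZNF410, ZNF621, ZNF624 and ZNF821 with their highest stage at 0h, ZNF703 at 22h and ZNF614 at 46h. Their rises and falls follow in part from how they entered and support nothing, though the counts include them, with 5 of the 8 lower and 1 higher at 46h against 0h. Just inside the limit were ZNF366 with a mean of 1.12 FPKM and ZNF614 with 1.16 FPKM, and just outside were ZNF260 with 0.959 FPKM and ZNF613 with 0.851 FPKM.

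The study followed pig (Sus scrofa) oocytes through meiotic maturation in culture and asked how gene expression changes between the germinal vesicle stage at 0h, a middle stage at 22h and metaphase II at 46h. Each stage had 4 libraries, all from pooled oocytes freed of their cumulus cells and amplified by SMART-Seq2 from an oligo-dT primer, and the labels give the time in maturation culture as the difference between the groups. The culture medium held follicular fluid, epidermal growth factor and the gonadotropins PMSG and hCG, so time in culture and exposure to these agents cannot be told apart. The series text names a later hour for the middle stage than the sample labels, and the hour of the labels is used here. The labels do not say whether replicates came from separate animals or cultures, so a p-value measures the spread between these libraries, which may be technical.

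Zinc finger proteins of the C2H2 kind fold short stretches of protein around a zinc ion that is held by a pair of cysteines and a pair of histidines, and rows of such fingers bind DNA. Many members of this large family also carry a KRAB domain, which recruits the co-repressor TRIM28 and with it histone methylation and deacetylation, and some carry a SCAN domain, through which these proteins pair with each other. KRAB zinc finger proteins are known for silencing transposable elements and for keeping imprints in the egg and early embryo, and in fully grown oocytes, where transcription has largely stopped, the level of an mRNA depends on its stability and its poly(A) tail.

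A single finger is shown for 6 members that recur below, to let the reader see the motif that gives the family its name together with the framework around it. Each is the first finger in the gene's RefSeq model on Sscrofa11.1 that fits the canonical spacing and lies in 1 exon, written as coding DNA of 63 bases from 5′ to 3′, with the codons of the zinc-holding cysteines and histidines in capitals. ZNF655 lies at chr3:6517890-6517952 on the plus strand, ZNF566 at chr6:45926540-45926602 on the plus strand, ZNF567 at chr6:45711413-45711475 on the minus strand, ZNF22 at chr14:91094087-91094149 on the minus strand, ZNF664 at chr14:29034823-29034885 on the minus strand and ZNF75D at chrX:110903419-110903481 on the plus strand.
ZNF655: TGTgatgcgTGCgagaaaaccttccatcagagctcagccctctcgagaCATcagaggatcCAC
ZNF566: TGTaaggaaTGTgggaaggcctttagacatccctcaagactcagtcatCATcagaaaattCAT
ZNF567: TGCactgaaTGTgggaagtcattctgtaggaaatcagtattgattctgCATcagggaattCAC
ZNF22: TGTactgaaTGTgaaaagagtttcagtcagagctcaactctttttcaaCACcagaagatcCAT
ZNF664: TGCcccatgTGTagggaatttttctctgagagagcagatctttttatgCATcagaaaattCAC
ZNF75D: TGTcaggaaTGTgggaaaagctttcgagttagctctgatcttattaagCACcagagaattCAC

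Of the 102 members, 89 were matched to a RefSeq gene model, 10 of them by product name. The match rests on the name alone, so a model may in single cases belong to another locus, which bears on the coordinates, finger counts, sequences and distances given here. Their proteins held from 0 to 34 C2H2 fingers with a median of 9, the most in ZNF462. None was matched in ZNF703 or in ZNF330, a nucleolar protein. A KRAB pattern was found in 40 of the 89 and a SCAN pattern in 6, which were ZNF24, ZNF287, ZNF396, ZNF449, ZNF496 and ZNF75D. The absence of a match says only that the letters searched are not in that model. Chromosome 6 carried 27 of the 89 genes, and the next, chromosome 14, carried 9. The median mRNA of the members was 4250 bases long, against 3195 bases over the 5677 tested genes with a model.

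Oocyte identity was clear from the marker genes and some library features moved with the stage. All 12 oocyte markers with an identifier reached at least 1 FPKM, and 10 of them were lower at 46h than at 0h, ZP3 for instance with means of 2970, 4950 and 95.5 FPKM at 0h, 22h and 46h. Of 11 cumulus and granulosa markers with an identifier, 9 stayed under 1 FPKM in every library, FSHR and CYP11A1 at most at 0.14 and 0.31 FPKM and LHCGR and INHA at 0. The others were VCAN and STAR, the latter with means of 4.47, 3.50 and 4.63 FPKM at 0h, 22h and 46h. The list summed to between 36.6 and 85.5 FPKM at 0h, between 52.0 and 82.2 at 22h and between 111 and 140 at 46h, a rise carried by VCAN with means of 58.3, 65.0 and 126 FPKM, and its part in the results below was not tested. Leukocyte markers summed to at most 0.19 FPKM, and of the endothelial markers CDH5 was at 0 while PECAM1 had means of 9.29, 15.6 and 22.1 FPKM. The share of mitochondrially encoded genes in the FPKM total was at most 3.76% in the 0h libraries and at least 12.8% in those of 46h, which enters the scaling of every other gene. Replicate 4 of 0h stood apart, with the highest 0h level for 47 of the 102 members and the lowest for 31, and so did replicate 1 of 22h, with the highest 22h level for 41 members, the lowest for 29 and the largest mitochondrial share of its stage. The member counts and medians and the genes named in full were refitted without each library, and their calls that changed without either are given below. For the patterns, protein groups, level classes, related families and co-factors no such refit is given. The number of reads is unknown, since FPKM carries no counts. In such pools, fewer cells of a kind and less RNA per cell cannot be told apart, and with an oligo-dT primer the same holds for a lower mRNA level and a shorter poly(A) tail.

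As a family, the ZNF transcripts were modest in level. The median of the members' means was 3.98 FPKM, against 7.29 FPKM over all genes tested, and 13.5% of the genes tested lay above the highest member. There were 58 members with a mean between 1 and 5 FPKM and 26 with a mean of at least 10 FPKM. Every member was above 0 in all 12 libraries, and 85 had at least 1 FPKM on average at each stage. The number of members at or above 1 FPKM was between 94 and 100 in the 0h libraries, between 95 and 99 in those of 22h and between 85 and 88 in those of 46h. Their summed level was 885 ± 42.6 FPKM at 0h, 809 ± 10.9 at 22h and 790 ± 33.1 at 46h (SD, n = 4), but with median-of-ratios scaling the sums were 784, 734 and 917, so that the direction of the last step and of the whole span turned with the scaling. The other 145 ZNF genes had a mean under 1 FPKM. Of these, 18 were at 0 throughout and 12 had at least 1 FPKM at 1 or more stages.

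A member was called changed when its adjusted p was under 0.05 (limma on log2(FPKM + 1), Benjamini-Hochberg over all 7013 genes) and its fold change over 1.5, and log2FC stands for the log2 fold change on that scale. At 22h against 0h, 3 members were higher and 12 lower, that is 2.94% and 11.8% of the members, where 7.84% of all genes tested were higher, 18.9% lower and 26.7% changed in either direction. At 46h against 22h, 10 members were higher and 20 lower (9.80% and 19.6%), against 9.87% and 32.6% of all genes tested and 42.4% in either direction. Over the whole span, at 46h against 0h, 15 members were higher and 29 lower (14.7% and 28.4%), against 16.8% and 39.1% and 55.9% in either direction. These counts describe the members and no test was made of the family against other genes. Altogether 48 members (47.1%) were called in at least 1 comparison, where 63.7% of all genes tested were, and 54 in none.

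**Figure D1:**
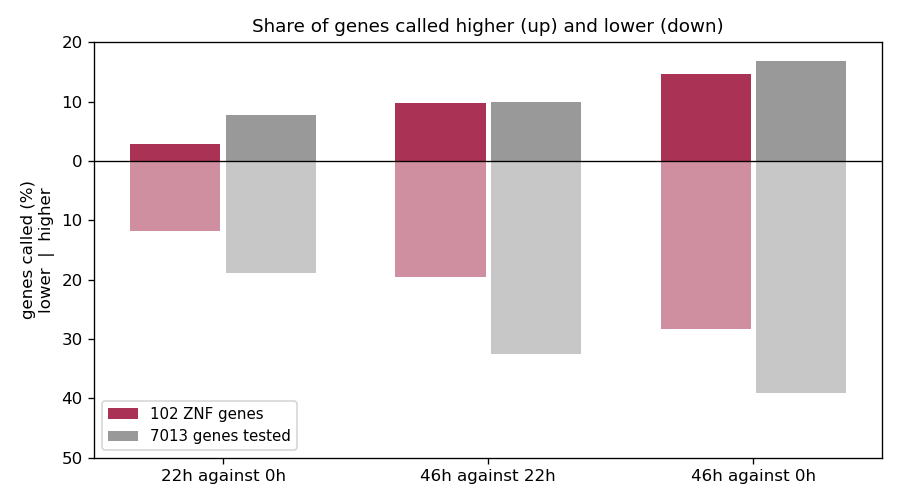
Percentage of genes called higher (bars above 0) and lower (bars below 0) in each comparison of stages, for the 102 ZNF genes and for all 7013 genes tested. At 46h against 0h, 28.4% of the ZNF genes and 39.1% of all genes tested were lower, and 14.7% and 16.8% were higher.

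The medians and the split into higher and lower members depended on the scaling of the libraries. As deposited, the median log2FC of the members was -0.07, -0.03 and -0.06 in the 3 comparisons in order, while over the genes tested it was 0.00, -0.26 and -0.25. Leaving out single libraries moved the member medians, in the first comparison to -0.17 without replicate 4 of 0h and to -0.04 without replicate 1 of 0h or of 22h, in the second to 0.00 without replicate 1 of 22h or replicate 3 of 46h, and in the third to -0.13 without replicate 2 of 0h, -0.10 without replicate 1 of 46h and -0.01 without replicate 2 of 46h. Median-of-ratios scaling moved the medians at 46h against 0h to 0.27 for the members and 0.06 for all genes tested, and quantile normalization moved them to 0.58 and 0.37. The counts at 46h against 0h were then 26 higher and 24 lower by the former, beside 29.2% and 33% of all genes tested, and 50 higher and 16 lower by the latter, beside 41% and 25.5%. At 46h against 22h they were 18 higher and 12 lower by median of ratios, beside 20.1% and 25.6% of all genes tested, and 38 higher and 6 lower by quantiles, beside 28.1% and 19.1%. The member median lay above that of the genes tested under all 5 scalings at 46h against 22h and against 0h, and below it at 22h against 0h. TPM and median-of-ratios scaling divide each library by a single factor, which shifts members and other genes nearly alike. The agreement between scalings was therefore largely set beforehand, and the difference between the medians was not tested. Directions of single genes are therefore to be read against these shifts, and of the 44 members called at 46h against 0h, 39 stayed called by median-of-ratios scaling and 31 by quantile normalization. Of the 30 called at 46h against 22h, 22 and 16 stayed called, and of the 15 called at 22h against 0h, 15 and 13.

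**Figure D2:**
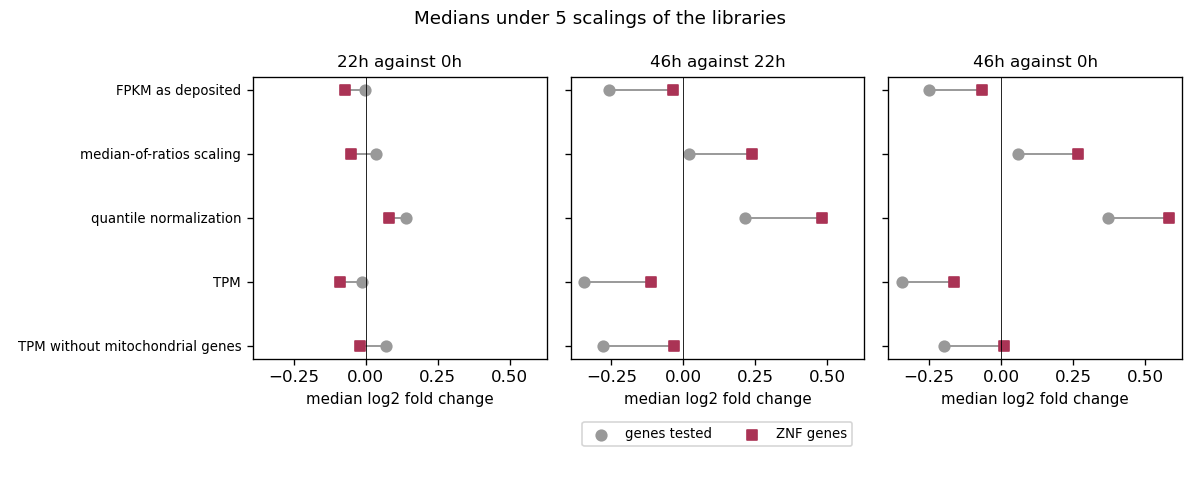
Median log2FC of the ZNF genes (squares) and of all genes tested (circles) in each comparison of stages, under 5 scalings of the same libraries. At 46h against 0h the median of the ZNF genes ran from -0.16 with TPM to 0.58 with quantile normalization, each time above that of all genes tested. All scalings but quantile normalization shift both medians nearly alike, so this agreement was largely set beforehand.

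By their course, the called members fell into a few patterns. In both steps, 9 members were lower: ZNF235, ZNF329, ZNF354C, ZNF395, ZNF502, ZNF566, ZNF583, ZNF621 and ZNF75D, each of them also lower over the whole span. That is 8.82% of the members, beside 11.6% of all genes tested, and 3 of the 9 (ZNF329, ZNF354C and ZNF621) are among those that entered through 0h. A further 3, ZNF286A, ZNF483 and ZNF821, were lower at 22h with no call in the second step (2.94%, beside 6.59% of all genes tested), ZNF821 being one that entered through 0h (means of 2.44, 0.900 and 0.328 FPKM). In the second step 10 were lower with no call in the first (9.80%, beside 19.1%), and 10 were higher with no call in the first (9.80%, beside 8.28%). ZNF133 and ZNF655 were higher at 22h and over the whole span, and ZNF330 was higher at 22h and lower again at 46h, where 5.06% of all genes tested were higher in the first step alone of the 2 steps and 1.83% higher and then lower. Over the whole span but in neither step, 9 members were lower and 4 higher (8.82% and 3.92%, beside 4.28% and 5.39%). No member was higher in all 3 comparisons, and none was lower at 22h and then higher at 46h, beside 0.955% and 0.627% of all genes tested. These shares were not tested against each other.

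**Figure D3:**
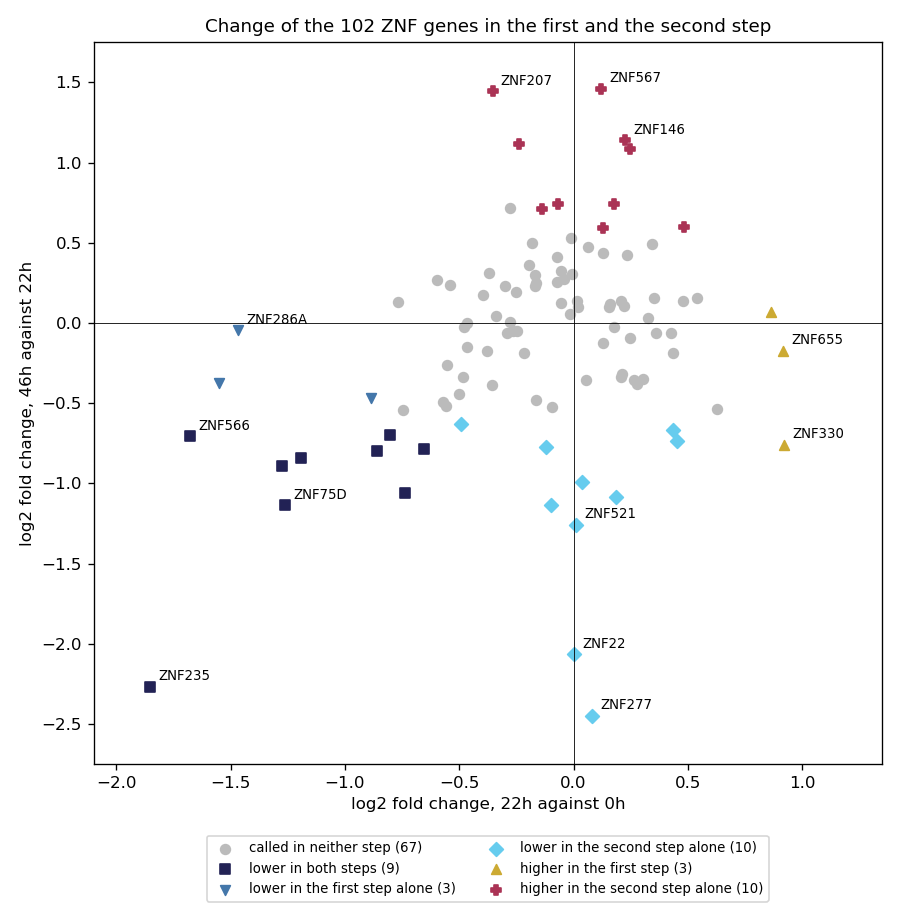
Log2FC of each of the 102 ZNF genes at 22h against 0h (horizontal axis) and at 46h against 22h (vertical axis), on log2(FPKM + 1), marked by the step in which the gene was called. ZNF235 sits at -1.85 and -2.27, ZNF277 and ZNF22 fell in the second step with changes of 0.08 and 0.00 in the first, and ZNF567 is at 0.12 and 1.46.

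The steepest loss was that of ZNF235, a C2H2 gene for which no RefSeq model was matched (ENSSSCG00000022434). Its level was 20.52, 12.05, 20.85 and 43.31 FPKM in the libraries of 0h, 8.96, 2.65, 7.09 and 4.44 at 22h and 0.32, 0.34, 0.18 and 0.42 at 46h. No 2 stages overlapped, and the highest 0h value was that of replicate 4. The mean at 46h was 76.8-fold lower than at 0h, with a log2FC of -1.85 ± 0.34 (SE) at 22h against 0h (adjusted p = 0.00109) and -2.27 ± 0.34 at 46h against 22h (adjusted p = 8.25e-05). Both calls were kept under the 24 alternatives in which this gene was refitted. Since 1 is added to each FPKM before the logarithm, such log2 values understate the change of low genes.

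ZNF566, a KRAB gene with 7 fingers on chromosome 6 (chr6:45894329-45927771), was at 11.93, 17.15, 10.38 and 8.27 FPKM at 0h, 3.20, 2.14, 2.84 and 3.66 at 22h and 1.08, 1.83, 1.5 and 1.26 at 46h. The stages were fully apart, and most of the fall came before 22h, with a log2FC of -1.68 ± 0.21 (adjusted p = 6.01e-05) and then -0.71 ± 0.21 (adjusted p = 0.0111). The second of these was no longer called with median-of-ratios scaling or quantile normalization. ZNF75D, which carries a SCAN and a KRAB pattern and lies on the X chromosome (chrX:110890327-110904067), was at 17.71, 12.57, 17.86 and 21.74 FPKM at 0h, 8.16, 5.49, 6.87 and 5.99 at 22h and 2.02, 1.81, 2.38 and 3.89 at 46h. Its losses in the first and second step were near equal in size, with log2FC values of -1.26 ± 0.21 (adjusted p = 0.000506) and -1.14 ± 0.21 (adjusted p = 0.000448). ZNF502 was between 6.80 and 8.36 FPKM at 0h, between 1.27 and 3.49 at 22h and between 0.78 and 1.08 at 46h, and the log2FC over the whole span was -2.17 ± 0.19 (adjusted p = 2.26e-07). ZNF621, a KRAB gene with 18 fingers, had means of 3.86 ± 0.79, 1.14 ± 0.41 and 0.182 ± 0.14 FPKM (SD, n = 4), a mean 21.2-fold lower at 46h than at 0h, in a gene that entered through its 0h level.

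The other members that were lower in both steps had smaller log2FC values over the whole span, although the ratio of FPKM means was 9.07-fold for ZNF329, above the 8.42-fold of ZNF566, the 8.57-fold of ZNF502 and the 6.92-fold of ZNF75D. ZNF583, also with a KRAB pattern, had means of 21.4, 11.4 and 6.08 FPKM at 0h, 22h and 46h. ZNF395, which is known for binding the promoter of the huntingtin gene, had means of 7.73, 4.31 and 1.5 FPKM. The means of ZNF354C were 3.20, 1.41 and 0.477 FPKM and those of ZNF329 were 2.45, 1.18 and 0.270 FPKM, both genes having entered through 0h. In all 4 the libraries of the 3 stages did not overlap, which follows largely from their choice as genes lower in both steps. No share of genes without overlap among all genes tested is given. The first-step calls of ZNF329 and ZNF395 lay near the fold threshold, with log2FC values of -0.57 without replicate 1 of 0h (adjusted p = 0.0193) and -0.58 without replicate 4 of 22h (adjusted p = 0.0332), just under it. Both were also lost with quantile normalization, and that of ZNF329 with a pseudocount of 0.1. With median-of-ratios scaling 3 of the 9 genes lower in both steps, ZNF354C, ZNF566 and ZNF583, were no longer called in the second step, and with quantile normalization 7 of them were not, ZNF235 and ZNF75D being the exceptions.

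Early loss with no later call was seen in ZNF286A, a KRAB gene with 10 fingers on chromosome 12 (chr12:58964413-58981107). Its level was 30.35, 29.60, 24.23 and 24.86 FPKM at 0h, 8.99, 7.80, 11.21 and 8.92 at 22h and 8.48, 8.02, 10.09 and 8.88 at 46h. The 22h and 46h libraries overlapped and both lay under all 0h libraries, with a log2FC of -1.47 ± 0.15 in the first step (adjusted p = 2.09e-05) and -0.05 ± 0.15 in the second (adjusted p = 0.822). ZNF483, a KRAB gene with 11 fingers, was at 6.48, 7.43, 9.09 and 14.17 FPKM at 0h, 4.16, 1.55, 2.73 and 1.68 at 22h and 1.16, 2.38, 1.74 and 1.33 at 46h, with log2FC values of -1.55 ± 0.26 (adjusted p = 0.000597) and -0.37 ± 0.26 (adjusted p = 0.254).

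Late loss, with no call at 22h against 0h, included the most abundant member. ZNF277 on chromosome 18 (chr18:33310344-33423106, minus strand) was at 103.05, 102.72, 84.24 and 71.06 FPKM at 0h, 91.17, 106.80, 79.22 and 103.25 at 22h and 18.99, 14.49, 13.75 and 19.46 at 46h. The 0h and 22h libraries overlapped and every 46h library lay well under them, a mean 5.70-fold lower than at 22h with a log2FC of -2.45 ± 0.18 (adjusted p = 6.59e-08). ZNF22, a small protein of 225 residues with 5 fingers (chr14:91092440-91096888), was at 14.45, 16.31, 11.07 and 8.01 FPKM at 0h, 8.42, 12.55, 14.23 and 14.06 at 22h and 2.29, 2.34, 1.68 and 2.24 at 46h. Its log2FC was 0.00 ± 0.22 in the first step (adjusted p = 0.994) and -2.07 ± 0.22 in the second (adjusted p = 2.55e-06). ZNF521, a co-factor known from blood progenitor cells with 22 fingers in its pig model, was between 3.43 and 4.25 FPKM at 0h, between 2.67 and 4.24 at 22h and between 0.72 and 1.29 at 46h, with a log2FC of -1.26 ± 0.16 in the second step (adjusted p = 1.63e-05).

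**Figure D4:**
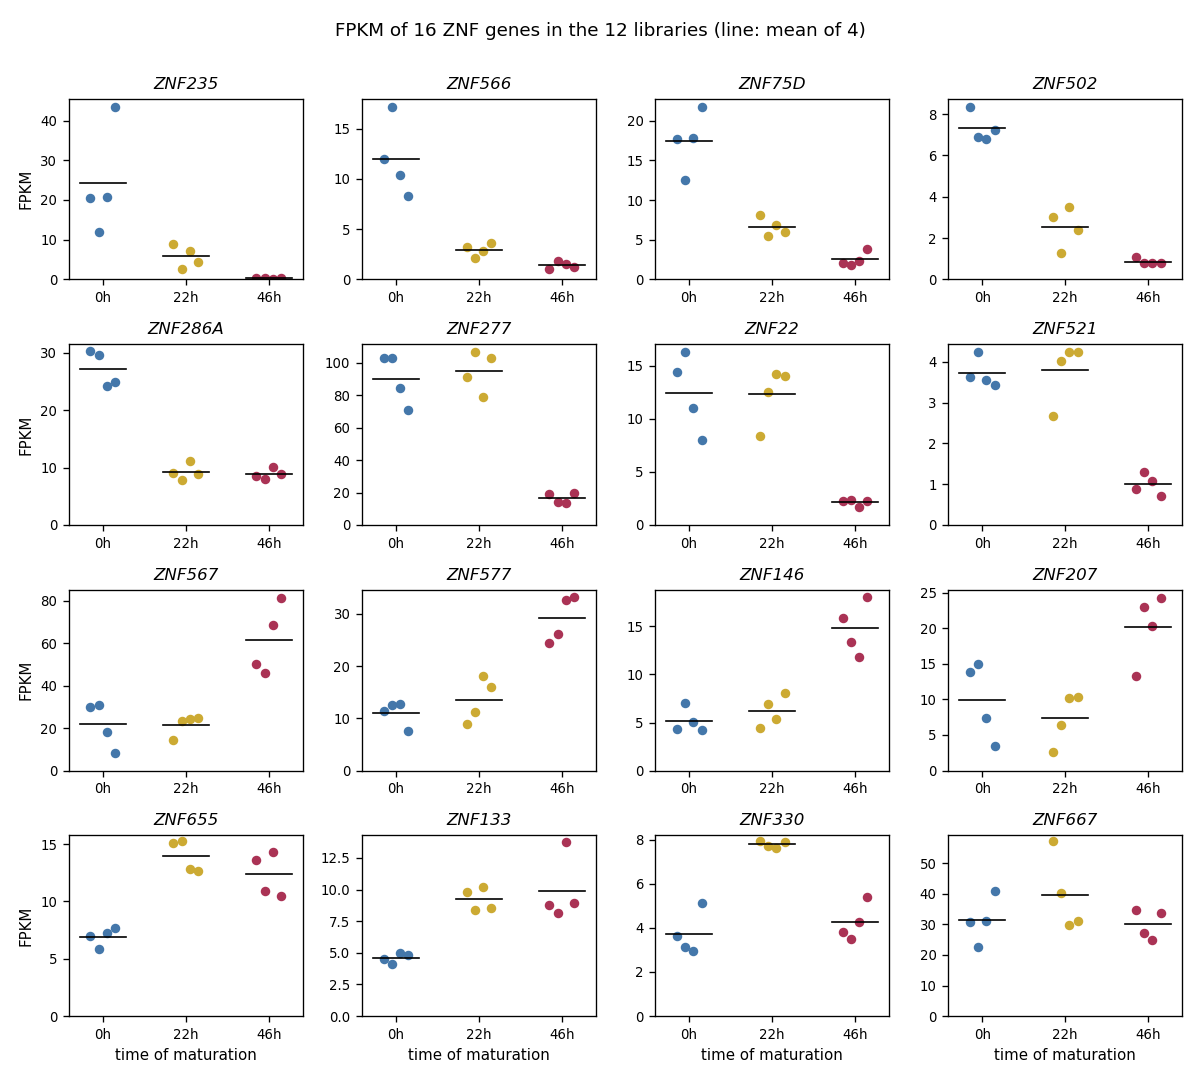
FPKM of 16 ZNF genes in each of the 12 libraries, with the 4 libraries of a stage as points in the order of their replicate number and the mean as a line; each panel has its own axis from 0. ZNF235 fell in both steps, ZNF286A in the first, ZNF277 in the second, ZNF567 rose in the second, ZNF655 in the first, and ZNF667 was called in none.

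Members higher at 46h included genes of high level. ZNF567, a KRAB gene with 14 fingers on chromosome 6 (chr6:45709663-45737905, minus strand), was at 29.98, 30.88, 18.18 and 8.14 FPKM at 0h, 14.53, 23.17, 24.02 and 24.72 at 22h and 50.02, 46.12, 68.62 and 81.37 at 46h. All 46h libraries lay above all others, while 0h and 22h overlapped, and the mean rose 2.85-fold in the second step with a log2FC of 1.46 ± 0.34 (adjusted p = 0.0031). ZNF577, a KRAB gene with 7 fingers, was between 7.55 and 12.74 FPKM at 0h, between 8.96 and 18.15 at 22h and between 24.45 and 33.32 at 46h, with a log2FC of 1.08 ± 0.23 in the second step (adjusted p = 0.00124). ZNF146, also called OZF, whose protein of 292 residues with 10 fingers consists of little else, was at 4.31, 6.99, 5.06 and 4.27 FPKM at 0h, 4.47, 6.98, 5.41 and 8.08 at 22h and 15.89, 13.41, 11.85 and 18.12 at 46h, with a log2FC of 1.14 ± 0.20 in the second step (adjusted p = 0.000356). ZNF883 rose from a mean of 2.12 ± 0.63 FPKM at 22h to 5.74 ± 1.5 at 46h (SD, n = 4), with a log2FC of 1.12 ± 0.22 (adjusted p = 0.00091).

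ZNF664 was the second most abundant member, at 53.49, 69.87, 41.50 and 22.52 FPKM at 0h, 38.17, 52.45, 50.09 and 58.23 at 22h and 71.00, 93.85, 87.05 and 81.63 at 46h. The 46h libraries were all above the rest, with a log2FC of 0.92 at 46h against 0h (adjusted p = 0.00883) and 0.74 at 46h against 22h (adjusted p = 0.036). The latter was lost with 6 of the 12 libraries left out in turn, with log2FC values between 0.62 and 0.77 and adjusted p from 0.0537 without replicate 2 of 22h to 0.0985 without replicate 1 of 22h. It was also lost with TPM (log2FC 0.66, adjusted p = 0.0815) and without the filter on low values (adjusted p = 0.0934). ZNF614, which entered through 46h, had means of 0.735, 0.890 and 1.86 FPKM, and its log2FC of 0.59 in the second step fell under the fold threshold without replicate 2 or 3 of 22h or 3 or 4 of 46h, to 0.50 at the lowest.

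At 22h the 3 genes that were higher kept their libraries apart from those of 0h, which follows largely from their being called. No share of such genes among all genes tested is given. ZNF655, a KRAB gene with 5 fingers (chr3:6504833-6521051), was at 6.96, 5.83, 7.20 and 7.70 FPKM at 0h, 15.08, 15.28, 12.80 and 12.69 at 22h and 13.65, 10.92, 14.30 and 10.51 at 46h. Its mean was 2.02-fold higher at 22h, with a log2FC of 0.92 ± 0.15 (adjusted p = 0.000571), and the 46h libraries overlapped those of 22h. ZNF133, a KRAB gene with 15 fingers, was at 4.49, 4.13, 4.96 and 4.85 FPKM at 0h, 9.78, 8.35, 10.21 and 8.57 at 22h and 8.77, 8.12, 13.80 and 8.91 at 46h, with a log2FC of 0.87 ± 0.17 in the first step (adjusted p = 0.00158). ZNF330, the nucleolar protein named above, was at 3.63, 3.13, 2.97 and 5.13 FPKM at 0h, 7.94, 7.72, 7.62 and 7.91 at 22h and 3.82, 3.51, 4.25 and 5.39 at 46h. It rose by a log2FC of 0.92 ± 0.17 (adjusted p = 0.00102) and then fell by 0.76 ± 0.17 (adjusted p = 0.00193), the second of which was lost under median-of-ratios scaling and under quantile normalization. Without replicate 4 of 0h 7 members were higher and 15 lower at 22h, and without replicate 1 of 22h 5 were higher and 15 lower. No share of all genes tested is given for these refits, so whether the members moved with other genes was not tested.

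Some ZNF proteins act outside DNA binding, and these were looked at by role. ZNF207, also called BuGZ, binds microtubules and the checkpoint protein BUB3 at kinetochores of the dividing cell. Its level was 13.84, 15.04, 7.38 and 3.52 FPKM at 0h, 2.57, 6.41, 10.18 and 10.41 at 22h and 13.29, 22.96, 20.34 and 24.33 at 46h. All 46h libraries lay above the 22h libraries, with a log2FC of 1.44 ± 0.42 (adjusted p = 0.0105), but they overlapped those of 0h, and the call at 46h against 0h (log2FC 1.09, adjusted p = 0.0337) was lost without any 1 of replicates 3 and 4 of 0h or 2, 3 and 4 of 46h, with adjusted p from 0.0645 to 0.103, and with TPM or without the filter on low values.

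ZNF598, the ubiquitin ligase that marks collided ribosomes, was at 2.85, 2.08, 4.81 and 10.30 FPKM at 0h, 9.06, 6.73, 7.48 and 5.72 at 22h and 5.05, 4.15, 6.44 and 3.30 at 46h. It was called in no comparison with FPKM as deposited. Without replicate 4 of 0h its log2FC at 22h against 0h was 0.99 (adjusted p = 0.00612), past the thresholds. With quantile normalization it passed at 22h against 0h (log2FC 0.80, adjusted p = 0.0301) and at 46h against 0h (log2FC 0.77, adjusted p = 0.0186). None of the 3 RNA-binding and splicing genes was called with FPKM as deposited, beside 26.7%, 42.4% and 55.9% of all genes tested in the 3 comparisons. ZNF638 had means of 7.86, 8.73 and 9.50 FPKM, ZNF106 had 23.7, 27.4 and 30.2 FPKM, and ZNF326, a subunit of the DBIRD complex that links RNA polymerase II to splicing, had 2.43, 3.43 and 2.93 FPKM. At 46h against 0h ZNF106 and ZNF638 passed with median-of-ratios scaling and quantile normalization, with log2FC values of up to 0.88 and 0.90, and ZNF326 passed with quantile normalization. At 22h against 0h ZNF326 passed without replicate 4 of 0h (log2FC 0.70, adjusted p = 0.0133) and with quantile normalization (log2FC 0.62, adjusted p = 0.0311). ZNF106 also passed at 46h against 22h with quantile normalization (log2FC 0.59, adjusted p = 0.00329).

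The 4 members tied to chromatin and silencing were called in no comparison with FPKM as deposited, beside the same shares of all genes tested (26.7%, 42.4% and 55.9%). ZNF445, which keeps imprints together with ZFP57, was between 1.92 and 5.48 FPKM at 0h, between 3.58 and 4.46 at 22h and between 2.32 and 3.67 at 46h. ZNF644, a partner of the histone methyltransferases G9a and GLP, had means of 5.54, 5.40 and 5.92 FPKM, and ZNF451, a SUMO ligase, had 23.7, 26.8 and 26.4 FPKM. ZNF518A had means of 1.48, 1.19 and 2.09 FPKM, with a log2FC of 0.50 in the second step (adjusted p = 0.021) that was under the fold threshold. With quantile normalization ZNF451, ZNF518A and ZNF644 passed at 46h against 0h, and ZNF518A and ZNF644 also in the second step (log2FC 1.08 and 0.64). ZNF518A passed in the second step with median-of-ratios scaling (log2FC 0.72) and with a pseudocount of 0.1 (log2FC 0.78) as well. The values do not show that the levels were equal.

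ZNF143, ZNF148, ZNF281 and ZNF410 are DNA-binding regulators of other genes, of which 3 were called over the whole span, beside 55.9% of all genes tested. Among these calls, that of ZNF410 supports nothing, since the gene entered through 0h. ZNF281, a regulator known from pluripotent cells, was at 2.99, 3.01, 3.71 and 4.26 FPKM at 0h, 3.54, 6.24, 5.19 and 6.40 at 22h and 8.84, 7.75, 10.07 and 7.25 at 46h, with a log2FC of 1.08 ± 0.18 at 46h against 0h (adjusted p = 0.000138). Its step from 22h to 46h (log2FC 0.60) fell under the fold threshold without replicate 1 of 22h, where it was 0.44, and without replicate 1 or 3 of 46h, while its first step passed without replicate 1 of 22h (log2FC 0.63, adjusted p = 0.0127). ZNF143, an activator bound at many promoters and chromatin loops, was lower, at 4.49, 4.46, 4.86 and 7.36 FPKM at 0h against 2.52, 2.85, 2.94 and 2.48 at 46h (log2FC -0.75 ± 0.16, adjusted p = 0.00114), a call lost under median-of-ratios scaling and under quantile normalization. ZNF410, the activator of CHD4 and a gene that entered through 0h, had means of 1.94, 1.14 and 0.667 FPKM and a log2FC of -0.82 ± 0.16 at 46h against 0h (adjusted p = 0.000413), which shrank to -0.13 and was lost with quantile normalization, and its first step passed without replicate 3 of 22h (log2FC -0.62, adjusted p = 0.00676). ZNF148 was called in no comparison with FPKM as deposited, with a single 0h library at 4.62 FPKM and the other 0h libraries under 1 FPKM. Without that library it passed at 46h against 0h with a log2FC of 0.60 (adjusted p = 0.0229). With quantile normalization it passed at 46h against 22h (log2FC 0.92, adjusted p = 0.0248) and against 0h (log2FC 0.82, adjusted p = 0.0325).

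Several abundant members were called in no comparison with FPKM as deposited. ZNF667 was at 30.89, 22.63, 31.28 and 41.02 FPKM at 0h, 57.42, 40.39, 29.82 and 30.99 at 22h and 34.72, 27.10, 25.07 and 33.76 at 46h, and ZNF383, a KRAB gene with 20 fingers, had means of 30.5 ± 8.6, 26.5 ± 4.2 and 31.8 ± 5.3 FPKM (SD, n = 4). Their stages overlapped throughout. With quantile normalization ZNF383 passed at 46h against 22h (log2FC 0.69, adjusted p = 0.0197) and against 0h (log2FC 0.64, adjusted p = 0.0221). ZNF366, a co-repressor of nuclear receptors and the lowest member, was between 0.51 and 1.44 FPKM at 0h, between 1.01 and 1.42 at 22h and between 1.17 and 1.63 at 46h, and it passed at 46h against 0h with quantile normalization (log2FC 1.03).

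Grouping the members by what their proteins carry gave the following counts for the whole span. Among the 40 genes with a KRAB pattern, 8 were higher (20%) and 11 lower (27.5%) at 46h against 0h, beside 16.8% and 39.1% of all genes tested. Among the 31 without it but with at least 5 fingers, 5 were higher and 9 lower, and among the 18 with fewer fingers, 2 were higher and 5 lower. Of the 6 SCAN genes 1 was higher and 2 lower, and of the 13 without a model none was higher and 4 lower. In the first step, 2 of the KRAB genes were higher (5%) and 6 lower (15%), beside 7.84% and 18.9% of all genes tested, and 0 and 1 of the 31 with 5 or more fingers and no KRAB pattern were, a difference that was not tested. The lower gene of the 31, ZNF329, and ZNF621 among the lower KRAB genes had entered through 0h. At 46h against 0h each of these groups held members called higher and members called lower, apart from those without a model. By level, 7 of the 26 members with a mean of at least 10 FPKM were higher at 46h against 0h and 8 lower (26.9% and 30.8%), beside 26.7% and 36.2% of all genes tested in that class. Of the 18 between 5 and 10 FPKM, 5 were higher and 3 lower (27.8% and 16.7%, beside 14% and 42.8%), and of the 58 between 1 and 5 FPKM, 3 were higher and 18 lower (5.17% and 31%, beside 7.35% and 40.9%). This lowest class holds all 8 members that entered through a single stage. They give 5 of its lower calls and 1 of its higher calls, and these support nothing. No class was tested against another.

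Transcript lengths are given by direction as medians, with no test. The median mRNA was 3410 bases for the 25 matched members that were lower at 46h against 0h, 3902 bases for the 15 that were higher and 4741 bases for the 49 called in neither direction. The same order of lower and uncalled genes stood in all genes tested with a model, at 2494.5 and 3847.5 bases. The cytoplasmic polyadenylation element TTTTAT was searched on the transcript strand in the last 100 bases of each model and was present in 12 of 89 members (13.5%), against 16.8% of all tested genes with a model. It was in 3 of the 15 higher, 3 of the 25 lower and 6 of the 49 uncalled members (20%, 12% and 12.2%), beside 21.3% of the higher, 11.7% of the lower and 19.3% of the uncalled genes among all those tested with a model. A match is a description of the letters, not of a working site.

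Pairs of neighbouring ZNF genes were set side by side. There were 13 pairs of adjacent members whose RefSeq models lie within 50000 bases, of which 7 were made up of 1 called and 1 uncalled gene at 46h against 0h, where 43.1% of the members were called. Whether neighbours are more or less alike than other members was not tested. ZNF75D and ZNF449 on the X chromosome, 24730 bases apart on the same strand, had log2FC values of -2.40 and 0.66 at 46h against 0h. ZNF449, like ZNF75D, carries a SCAN pattern, and it was at 3.90, 4.18, 5.34 and 9.88 FPKM at 0h and at 9.09, 8.74, 10.84 and 8.46 at 46h. Its call (adjusted p = 0.0321) was lost in 6 of the 12 runs that left out 1 library, with adjusted p of 0.0505 without replicate 2 of 46h, 0.0564 without replicate 1 of 46h, 0.0626 without replicate 3 of 0h, 0.0819 without replicate 3 of 46h, 0.0869 without replicate 2 of 0h and 0.101 without replicate 1 of 0h.

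ZNF789 and ZNF655 on chromosome 3, 23376 bases apart on opposite strands, had log2FC values of -1.08 and 0.75 at 46h against 0h. ZNF789 was at 2.39, 1.40, 3.44 and 3.97 FPKM at 0h and 0.83, 0.84, 0.52 and 0.77 at 46h, with no overlap (adjusted p = 0.000531), but its call was lost with quantile normalization, where the log2FC was -0.37. On chromosome 6, ZNF667 and ZNF583 had -0.04 and -1.65, and ZNF565 and ZNF146 had -0.30 and 1.37, in each case with 1 of the 2 genes called. Whether reads were counted by strand is not stated in the sources used here, so reads of overlapping transcripts of such neighbours could have been shared.

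**Figure D5:**
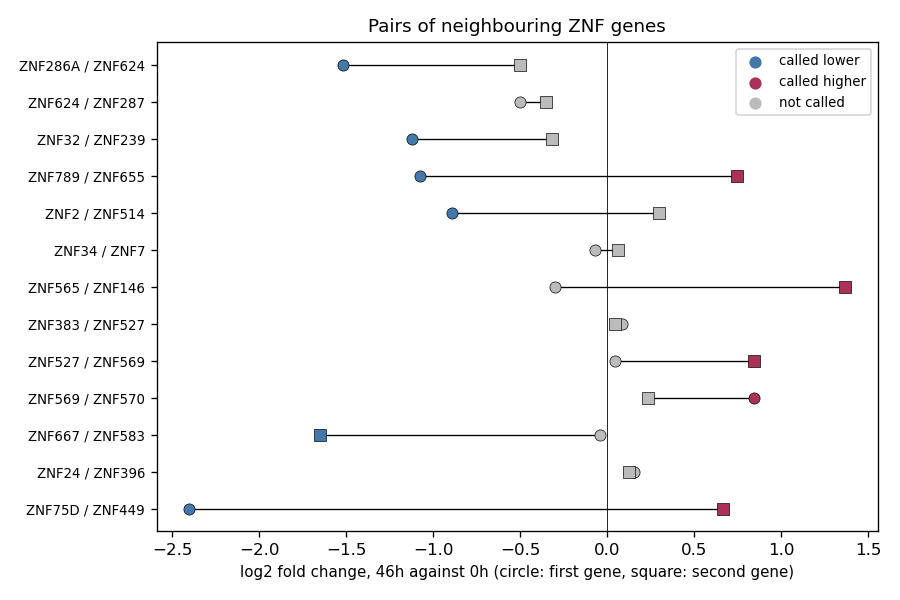
Log2FC at 46h against 0h of the 13 pairs of neighbouring ZNF genes, with the first gene as a circle, the second as a square and the color showing the call. ZNF75D and ZNF449 (-2.40 and 0.66) and ZNF789 and ZNF655 (-1.08 and 0.75) were called in opposite directions.

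The partners through which KRAB proteins repress were measured in the same libraries. Of 23 genes on that list 20 had an identifier and 16 were tested, and at 46h against 0h 3 were higher and 4 lower, with FPKM as deposited, where 16.8% of all genes tested were higher and 39.1% lower. TRIM28, the co-repressor that KRAB domains bind, had means of 7.68 ± 2.83, 13.7 ± 2.20 and 8.34 ± 3.24 FPKM (SD, n = 4), with log2FC values of 0.80 in the first step (adjusted p = 0.0337) and -0.70 in the second (adjusted p = 0.0416). SETDB1, the histone H3 lysine methyltransferase recruited by TRIM28, had means of 62.3, 55.3 and 5.50 FPKM, with a log2FC of -3.24 ± 0.24 at 46h against 0h (adjusted p = 3.46e-08). The deacetylase HDAC2 was lower by a log2FC of -1.77, while HDAC1 was higher by 0.89. CBX5, which reads the methyl mark, was lower by -1.14 and the DNA methyltransferase DNMT1 by -0.73. RBBP7, a histone-binding subunit, was higher by 1.84 and PPHLN1, a subunit of the HUSH complex, by 0.76.

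Related families of zinc finger genes gave counts for comparison at 46h against 0h. All genes tested had 16.8% higher and 39.1% lower in this comparison. Of 12 tested ZFP genes 1 was higher and 4 lower, and of 7 tested ZBTB genes 1 was higher and 1 lower. None of 5 tested ZSCAN genes was higher and 3 were lower, and of 3 tested ZKSCAN genes none was higher and 2 were lower. Of 5 tested ZC3H genes, whose CCCH fingers bind RNA, 2 were higher and 1 lower. These families are too small for a comparison with the ZNF genes, and none was made.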

How the data were processed

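Libraries were made from pools of denuded porcine oocytes by SMART-Seq2, 4 per stage. The authors trimmed the reads with Trim Galore, mapped them with STAR onto the pig genome and estimated expression with RSEM, and the deposited values are FPKM per Ensembl gene identifier. They hold no counts, so the count test of the study was not run, the depth is unknown, and precision rests on the spread over the 4 libraries of a stage. The strand setting of the quantification is not given in the sources used here.

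Identifiers were named from the NCBI tables of the reference genome, which named 15029 of 31908. The 7013 genes that averaged 1 FPKM or more were fitted as log2(FPKM + 1) by limma (version 3.58.1, under R 4.3.3), using lmFit and trended eBayes, with stage as the sole factor and all 12 libraries in one model. Two-sided p-values were adjusted by Benjamini and Hochberg's method over these genes. A call needed an adjusted p under 0.05 and a fold change over 1.5. On simulated data with 200 of 7013 genes changed by 1.5 on the log2 scale at 46h against 0h, 190 were recovered and 5 others called. Whether these numbers hold in the measured libraries, where 55.9% of all genes tested were called at 46h against 0h, was not tested. The same goes for changes smaller than 1.5 on the log2 scale.

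The members and all gene lists were chosen with earlier results of these data known. The genes named are the 5 with the largest rise and fall among called members in each comparison, the 6 of the highest mean, the 2 members and 2 other ZNF genes nearest the limit of 1 FPKM and the members of the role lists, which makes 34 members. After their values were seen, 7 more were added for being lower in all 3 comparisons or neighbours called in opposite directions. Others stand as bare names in lists of a pattern or domain, apart from ZNF565, a neighbour, and ZNF821, whose means are given. Protein features were read from translated RefSeq models of Sscrofa11.1, matched by symbol or product name. The patterns for fingers, KRAB and SCAN, the window at the transcript end, the neighbour distance and the level classes were set after member values had been seen, the KRAB pattern was widened after its first matches, and it counted only in proteins with a finger.

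Alternatives were a pseudocount of 0.1, no filter, a limit of 5 FPKM, scaling by TPM (mitochondrial genes kept or removed), by median of ratios or by quantiles, a fit of the 2 groups compared, eBayes without a trend, the replicate number as a block, a fold over 2 or no fold threshold, further symbols from a gene table of the study, and each library left out. Python 3.11.15 with numpy 2.4.6, pandas 2.3.3 and matplotlib 3.10.9 made the tables and figures.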

Additional observations from a re-analysis of the deposited data

Results flagged for a closer look

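In 11 of the 132 groups of 4 libraries examined, 1 library lay far from the other 3 by Dixon's test at its 95% level. The groups examined are more than the 41 genes named in full make up at 3 stages. Chance alone gives about 1 in 20 groups. No cause was tested. At 0h, replicate 4 was far above the others for ZNF143 (7.36 FPKM, others 4.46 to 4.86) and for ZNF326 (4.64 FPKM, others 1.41 to 1.87), and replicate 3 was for ZNF148 (4.62 FPKM, others 0.44 to 0.99). At 22h, replicate 1 was far below for ZNF521 (2.67 FPKM, others 4.02 to 4.24) and for ZNF567 (14.53 FPKM, others 23.17 to 24.72). At 46h, replicate 3 was above for ZNF133 (13.8 FPKM, others 8.12 to 8.91) and below for ZNF22 (1.68 FPKM, others 2.24 to 2.34). Replicate 1 of 46h was above for ZNF366 (1.63 FPKM, others 1.17 to 1.18) and ZNF502 (1.08 FPKM, others all at 0.78). Replicate 2 of 46h was above for ZNF410 (0.91 FPKM, others 0.57 to 0.62), and replicate 4 of 46h was above for ZNF883 (7.92 FPKM, others 4.93 to 5.05).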

How the results depend on the processing

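Quantile normalization gave 9 higher at 22h against 0h, 38 higher and 6 lower at 46h against 22h, and 50 higher and 16 lower at 46h against 0h, where 14.9%, 28.1% and 19.1%, and 41% and 25.5% of all genes tested were. Median-of-ratios scaling gave 18 higher and 12 lower at 46h against 22h and 26 higher at 46h against 0h. A fold over 2 left 0 higher and 7 lower at 22h against 0h, 5 higher and 8 lower at 46h against 22h, and 5 higher and 20 lower at 46h against 0h. A mean of at least 5 FPKM leaves 44 members. Of these, 3 were higher and 5 lower at 22h against 0h, 6 and 10 at 46h against 22h, and 12 and 12 at 46h against 0h. Their median log2FC was above 0 in the 3 comparisons, at 0.06, 0.11 and 0.12 in order. No shares of all genes tested are given for the fold over 2, the limit of 5 FPKM or the runs that left out a library. The same holds for the replicate block and the further symbols below. Those counts therefore describe the members alone. Leaving out 1 library gave 3 to 7 higher and 11 to 16 lower at 22h against 0h, 7 to 11 and 17 to 21 at 46h against 22h, and 13 to 16 and 27 to 31 at 46h against 0h. With the replicate number as a block, 3 were higher and 12 lower at 22h against 0h, 10 and 19 at 46h against 22h, and 13 and 30 at 46h against 0h. The block ended the calls of ZNF207 and ZNF449 at 46h against 0h. Deviations of same-numbered libraries correlated from -0.466 to 0.0845 between 0h and the later stages and at 0.381, 0.00884, 0.211 and 0.127 between 22h and 46h, so the numbers were not taken to pair the libraries. With symbols also taken from the study's gene table, itself a selection of changed genes, there were 107 members, of which 16 were lower at 22h against 0h and 33 at 46h against 0h. Over the 41 genes named in full, 34 of 63 calls were kept under every alternative in which the gene was refitted (24, or 23 for genes under a mean of 5 FPKM), 29 were lost under at least 1, none turned in direction, and 23 of 60 uncalled values passed under at least 1. The causes were not tested. Low members, 58 of which lie under 5 FPKM on average, are limited by the unknown depth.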
